A study of Mus musculus with 21 samples.

Results

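Mitochondrial ribosomal protein genes are the nuclear genes for the proteins of the ribosome that works inside mitochondria. They were taken here as all genes in the files whose mouse symbol begins with Mrpl or Mrps followed by a digit, with pseudogenes left out. This gave 75 of the 9657 genes measured, 47 of the large subunit (Mrpl) and 28 of the small subunit (Mrps) by symbol. The annotation holds 78 such genes, and Mrpl9, Mrpl27 and Mrps28 were not analysed here. No filter on low values was added, so all 75 entered every test, and the rule used no measured value.

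The mitochondrial ribosome translates the few messenger RNAs of mitochondrial DNA, which encode core subunits of the respiratory chain and of ATP synthase. Its ribosomal RNAs, mt-Rnr1 in the small subunit and mt-Rnr2 in the large, are mitochondrially encoded, while all of its proteins are made in the cytosol and imported. Some of these proteins have counterparts in bacterial ribosomes and others occur only in mitochondria. Hepatocytes are rich in mitochondria.

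The 21 libraries were made from wild-type (WT) primary mouse hepatocytes, which are liver cells kept in culture, on Day 1 after treatment. Cells received PBS as the control, or TTR-1236, TTR-1186 or Reference 4, which are RNA interference agents directed against Ttr, the gene of the secreted carrier protein transthyretin, each at 0.2 µM and at 2 µM. The 7 groups held 3 libraries each, and the labels name no animal, pool of animals, sex or age. Expression was measured with QuantSeq, a method that reads the 3′ ends of polyadenylated RNA, and values are CPM, reads scaled to a library total of 1000000, in libraries of 14158740 to 37410773 reads.

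Ttr, the targeted gene, was at 2258 ± 84.7 CPM (SD, n = 3) in PBS and at group means of 7.09 to 19.2 CPM in the treated groups. Of the hepatocyte markers 7 of 8 were measured, with a summed level of 13850 to 21951 CPM. Markers of other liver cells were low: 2 of 5 macrophage genes (77.2 to 184 CPM in sum; group means were 91.1 in PBS, 135 with TTR-1236 and 144 with Reference 4 at 2 µM), 1 of 5 endothelial genes (0.179 to 10.6), 2 of 5 stellate cell genes (9.91 to 49.6; means of 17.0 in PBS and 39.5 with TTR-1186 at 2 µM), 2 of 4 bile duct genes (24.5 to 48.2; means of 34.6 in PBS, 45.2 with TTR-1236 and 46.1 with Reference 4 at 2 µM) and 0 of 3 leukocyte genes. In such bulk samples fewer cells of a type and less RNA per cell cannot be told apart, and the part of these marker genes in the results below was not tested. No label ties a library to a culture or animal of its own, so the p-values below speak only of library-to-library spread, which may be technical. PBS replicate 3 and replicate 2 of TTR-1186 at 0.2 µM and at 2 µM stood apart from the other libraries of their groups. The mitochondrial ribosomal RNAs took 3.26, 2.696 and 0.797 percent of CPM in the 3 PBS libraries, 3.73, 1.49 and 3.12 percent with TTR-1186 at 0.2 µM and 1.95, 0.622 and 2.21 percent with TTR-1186 at 2 µM. The main sums and counts are therefore also given without these 3 libraries, an alternative added after seeing the data that leaves 2 libraries in those groups.

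Promoters of the 5 members that rose between the doses of Reference 4, as described further on, are shown because limma called more members there than for any other agent and these genes can be compared for shared letters. The stretches run from 150 bases before to 30 bases after the gene start in RefSeq on GRCm38.p6, 5′ to 3′ along the gene, and capitals mark the searched motifs. The RefSeq start of Mrpl44 is that of its gene model in the annotation used for symbols, and the other 4 starts lie inside their gene models. They lie at chr9:105053118-105053297 on the plus strand for Mrpl3, chr5:31613801-31613980 on the plus strand for Mrpl33, chr16:84735215-84735394 on the minus strand for Mrpl39, chr1:79775868-79776047 on the plus strand for Mrpl44 and chr6:83108958-83109137 on the plus strand for Mrpl53.
Mrpl3: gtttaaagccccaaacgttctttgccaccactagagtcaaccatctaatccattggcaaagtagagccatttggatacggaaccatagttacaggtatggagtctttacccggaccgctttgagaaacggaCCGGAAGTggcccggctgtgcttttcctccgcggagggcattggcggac
Mrpl33: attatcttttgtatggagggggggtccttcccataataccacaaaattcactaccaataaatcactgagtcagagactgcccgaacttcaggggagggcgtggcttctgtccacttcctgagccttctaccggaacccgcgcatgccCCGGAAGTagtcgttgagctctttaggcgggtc
Mrpl39: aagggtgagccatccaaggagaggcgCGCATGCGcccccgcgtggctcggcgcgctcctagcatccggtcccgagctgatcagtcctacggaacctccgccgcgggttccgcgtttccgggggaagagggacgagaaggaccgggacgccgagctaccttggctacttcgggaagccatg
Mrpl44: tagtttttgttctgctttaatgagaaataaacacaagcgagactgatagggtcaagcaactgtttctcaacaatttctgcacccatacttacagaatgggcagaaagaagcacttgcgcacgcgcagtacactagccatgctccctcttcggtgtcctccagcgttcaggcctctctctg
Mrpl53: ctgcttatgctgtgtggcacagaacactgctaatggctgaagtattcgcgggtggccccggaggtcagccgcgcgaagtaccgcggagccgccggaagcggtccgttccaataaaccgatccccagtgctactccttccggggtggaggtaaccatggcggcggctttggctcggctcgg

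Mrpl3 and Mrpl33 each hold CCGGAAGT, the letters bound by ETS family factors such as GABPA, and Mrpl39 holds CGCATGCG, the core of the NRF1 motif. Mrpl44 and Mrpl53 hold none of the 5 motifs searched. Of the 75 members 67 had a 300-base promoter window in the table, and 28 of these held at least 1 of the motifs on either strand. CCGGAAGT was found in 11 members (16.4%) against 4.31% of 27025 genes with a window. AAGATGGCG, the motif of YY1, was found in 8 members (11.9%) against 1.64%, and CGCATGCG in 6 members (8.96%) against 2.07%. These 3 motifs are known from many nuclear genes of mitochondrial proteins. TGACGTCA, the CREB and ATF site, was found in 2 members (2.99%) against 2.03%, and the E-box CACGTG, bound by MYC among others, in 5 members (7.46%) against 8.09%. No searched motif is contained in another one. The members' windows had a median GC content of 58.7% and all windows one of 52.7%. A match describes letters in the window and is not a binding site.

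The 75 members were moderately expressed and unequal in level. Their mean over the 21 libraries ran from 5.502 CPM for Mrpl1 to 209 CPM for Mrps18b, with a median of 44.7 CPM against 23.9 CPM over all genes. The large subunit had a median of 49.6 CPM and the small subunit one of 42.9 CPM. Because reads come from the 3′ end, CPM were not divided by transcript length, and comparisons of level between genes are on this scale.

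Among large subunit genes the highest mean levels were those of Mrpl30 at 209, Mrpl34 at 139, Mrpl12 at 128, Mrpl35 at 115 and Mrpl38 at 112 CPM. Mrpl12 is the stalk protein that contacts translation factors, and Mrpl30, Mrpl34 and Mrpl35 have bacterial counterparts. Among small subunit genes they were those of Mrps18b at 209, Mrps18a at 112, Mrps24 at 98.6, Mrps12 at 91.7 and Mrps34 at 90.8 CPM. Mrps12 is the counterpart of the bacterial decoding-centre protein S12. The lowest large subunit genes were Mrpl1, a protein of the mobile L1 stalk, at 5.502 CPM, Mrpl32 at 9.27 CPM and Mrpl39 at 9.86 CPM. The lowest small subunit genes were Mrps31 at 11.5, Mrps35 at 11.8 and Mrps22 at 14.8 CPM. The order is close at both ends: Mrpl30 and Mrps18b had overlapping ranges of 159 to 254 and 174 to 257 CPM, and the 3 lowest small subunit genes also overlapped.

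**Figure D1:**
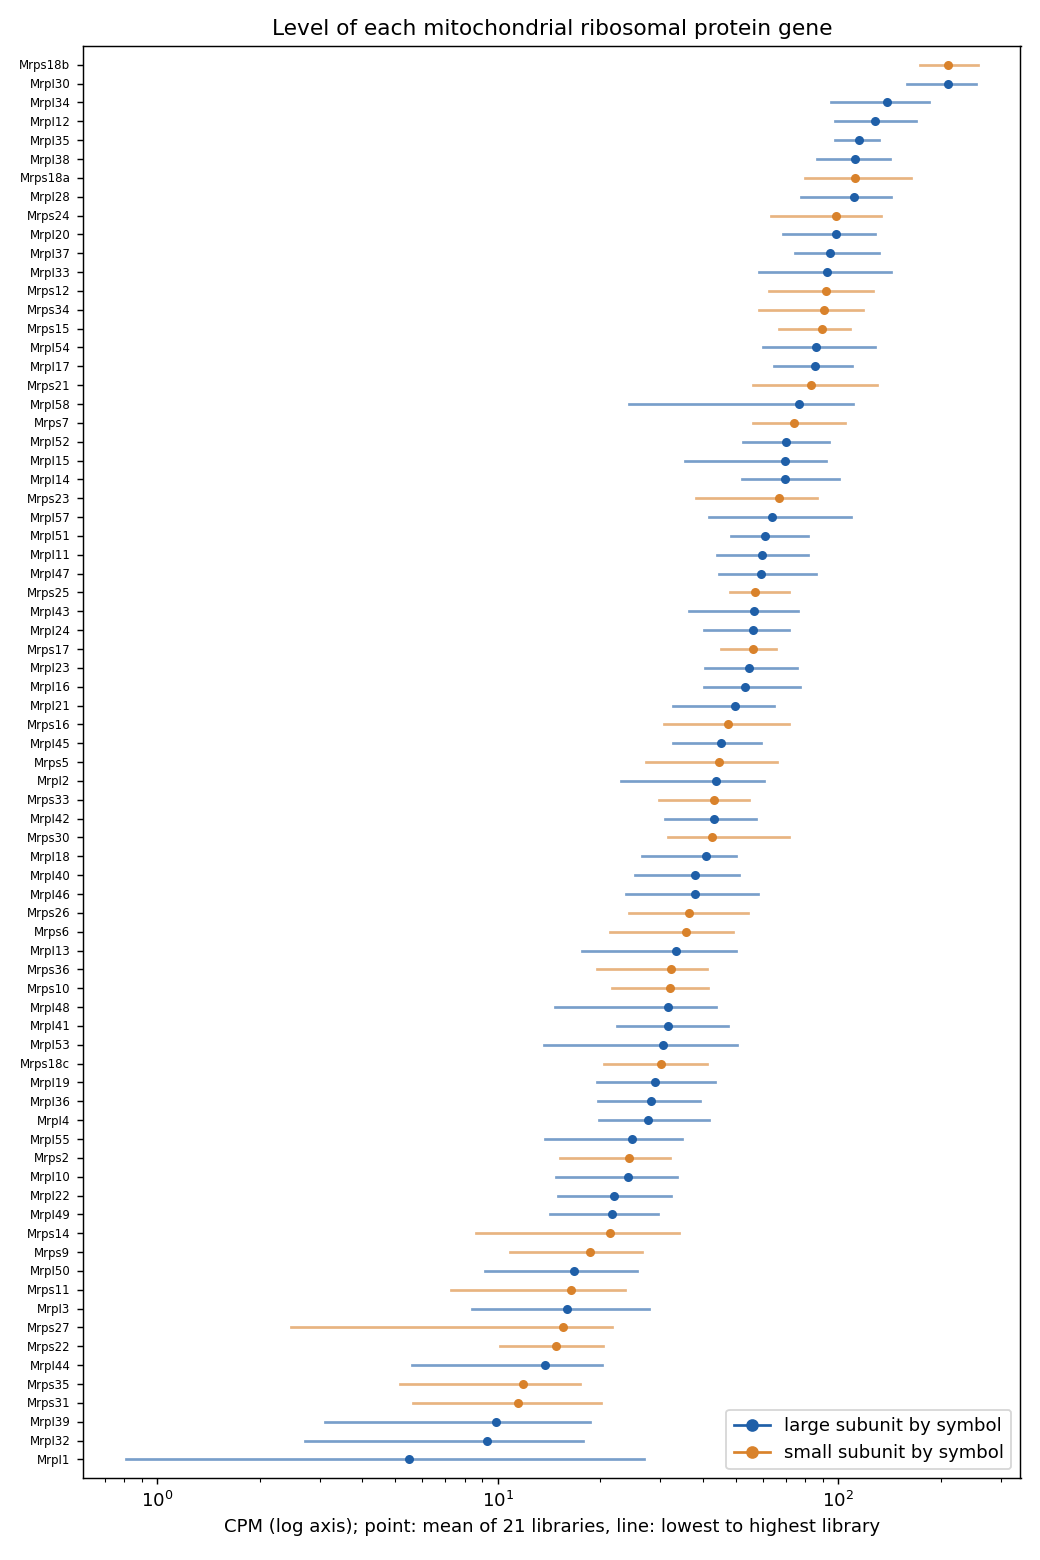
Mean level of each of the 75 mitochondrial ribosomal protein genes in CPM on a log axis, with a line from the lowest to the highest of the 21 libraries, large subunit in blue and small subunit in orange. The genes span 5.502 to 209 CPM, and the lines of neighbouring genes overlap, while the line of Mrpl1 is the longest, from 0.807 to 26.8 CPM.

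Some of these levels are uncertain because other genes share the locus or the sequence. Reads of Mrps18b, the highest member, equalled those of the opposite-strand gene Gm16279 in 10 of 21 libraries, with a ratio of Gm16279 to Mrps18b of 0.990 to 1.00. Mrpl53 and the same-strand gene Gm42688 held equal reads in 17 of 21 libraries and differed by at most 14 reads in the others. Mrpl24 and the opposite-strand gene Rrnad1 had a ratio of 0.966 to 1.077, and Mrpl23 and its pseudogene Mrpl23-ps1 one of 0.838 to 1.00. For these 4 members the reads of the 2 genes of a pair cannot be told apart. In all, 19 members overlap another gene of the files, 17 of them a gene on the opposite strand, among them Mrpl44 with Wdfy1, Mrpl18 with Tcp1, and Mrpl46 with Mrps11. The strand setting of the counting is not given in the sources used here.

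Variation between libraries was smaller for the median member than for the median gene. The coefficient of variation (SD divided by the mean over the 21 libraries) had a median of 19.0% for the 72 members with a mean of at least 10 CPM, against 24.6% for the 7430 genes at that level. Mrpl35 varied least among large subunit genes, at 7.91%, followed by Mrpl20 at 12.3%. Mrps17, at 9.66%, and Mrps18b, at 12.2%, varied least in the small subunit. Among members of at least 10 CPM the most variable were Mrpl53 (31.9%) and Mrpl44 (31.8%) in the large subunit and Mrps11 (32.9%) and Mrps31 (32.7%) in the small. Below that level Mrpl1 (95.9%), Mrpl39 (44.0%) and Mrpl32 (37.2%) varied more. Mrpl44 carries a domain related to the RNA-cutting enzyme RNase III.

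Mrpl1 was at 26.8, 8.79 and 2.13 CPM in the 3 PBS libraries and at 2.25, 2.395 and 3.46 CPM with TTR-1236 at 2 µM. PBS replicate 1 is high and PBS replicate 3 low, so the groups overlap. The lowest value was 0.807 CPM, or 18 reads, in TTR-1186 2 µM replicate 2. That library was also the lowest for Mrps27, at 2.47 CPM against 16.1 and 16.2 in the others of its group, and for Mrpl58, a peptidyl-tRNA hydrolase built into the large subunit, at 24.2 against 76.9 and 75.5 CPM.

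Summed over all 75 genes, the members took 3915, 3800.1 and 4286 CPM in the 3 PBS libraries. The sums were 4151, 4075 and 4174 CPM with TTR-1236, 3985, 4298 and 3973 CPM with TTR-1186 and 4007, 4099 and 4088 CPM with Reference 4 at 0.2 µM. PBS replicate 3 is the highest PBS library, and every group at 0.2 µM overlaps PBS. At 2 µM they were 4630.3, 4294 and 4419 CPM with TTR-1236, 4225, 4397 and 4107 CPM with TTR-1186 and 4430.2, 4416 and 4485 CPM with Reference 4. All 6 libraries of TTR-1236 and Reference 4 at 2 µM lie above all 3 PBS libraries, the lowest by little, and TTR-1186 overlaps PBS.

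The group means at 2 µM were 4448 ± 169.8 CPM (SD, n = 3) for TTR-1236 and 4444 ± 36.4 CPM for Reference 4, against 4000.3 ± 254 CPM in PBS, or 111% of the PBS mean in both. Without the 3 libraries that stood apart the PBS mean was 3857 CPM (n = 2), and TTR-1236, TTR-1186 and Reference 4 at 2 µM were at 115%, 108% and 115% of it, with all their libraries above both of PBS. At 0.2 µM the agents were at 107%, 103% and 105% of it in the same order. Their libraries at 0.2 µM then also all lay above both of PBS, so this separation was not particular to 2 µM. PBS replicate 3 had the highest PBS sum, so leaving it out lowers the PBS mean. This raises the percentages of TTR-1236 and Reference 4, whose libraries were all kept. The summed CPM of the 89 cytosolic ribosomal protein genes were 115% of the PBS mean with TTR-1236 and 111% with Reference 4 at 2 µM. No p is given for these sums, because the members were chosen as a list. The mitochondrial ribosomal RNAs had the opposite order of means: mt-Rnr1 and mt-Rnr2 together took 2.25 ± 1.29 percent of CPM in PBS, 0.412 ± 0.116 percent with TTR-1236 at 2 µM and 0.767 ± 0.361 percent with Reference 4 at 2 µM. With all mitochondrially encoded genes left out of the library total, an alternative added after seeing the data, the members' sums were 4206 ± 215 CPM in PBS, 4599.6 ± 160.1 CPM with TTR-1236 and 4631 ± 21.7 CPM with Reference 4 at 2 µM.

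The large subunit carried more of the members' CPM than the small subunit in every library. It also holds more of the genes, 47 against 28, and the sums were not divided by these numbers. The ratio below therefore does not compare the level per gene, and it serves to compare groups. The ratio of summed large to summed small subunit CPM was 1.74, 1.83 and 1.63 in the PBS libraries. At 0.2 µM the group means were 1.84 ± 0.04997 (SD, n = 3) for TTR-1236, 1.77 ± 0.0559 for TTR-1186 and 1.71 ± 0.0334 for Reference 4. At 2 µM they were 1.82 ± 0.133 for TTR-1236, 1.81 ± 0.0476 for TTR-1186 and 1.85 ± 0.0614 for Reference 4, against 1.73 ± 0.09605 in PBS. Every treated group overlaps PBS. TTR-1236 at 0.2 µM, TTR-1186 at 2 µM and Reference 4 at 2 µM, the last with 1.82, 1.81 and 1.92, do so only through PBS replicate 2. Without the 3 libraries that stood apart the means were 1.78 in PBS, 1.799 with TTR-1186 at 0.2 µM and 1.83 with TTR-1186 at 2 µM. All 3 libraries of Reference 4 at 2 µM had a higher ratio than its 0.2 µM libraries, at 1.75, 1.697 and 1.69.

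Symbols do not always give the place of a protein in the ribosome. Mrps18a and Mrps30 lie in the large subunit of the mitochondrial ribosome, and Mrps36 is a component of the oxoglutarate dehydrogenase complex. Assigning the subunits by structure also changes the number of genes in each sum. The PBS ratio was then 2.15, and the 7 group means ran from 2.09 to 2.21. Mrps18a, one of 3 relatives of bacterial S18, was at 160.2, 91.8 and 164 CPM in PBS and 153, 127 and 135 CPM with Reference 4 at 0.2 µM, against 99.3, 113 and 87.1 CPM with Reference 4 at 2 µM. PBS replicate 2 lies within the range of the 2 µM libraries, so PBS overlaps them, while the 2 doses of Reference 4 do not overlap. Mrps30 was at 38.3 ± 1.99 CPM (SD, n = 3) in PBS and 48.7 ± 4.46 CPM with Reference 4 at 2 µM. Mrps36 was at 27.9 ± 7.83 and 35.1 ± 4.11 CPM in the same groups. None of these 3 genes passed the threshold in limma in any comparison.

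**Figure D2:**
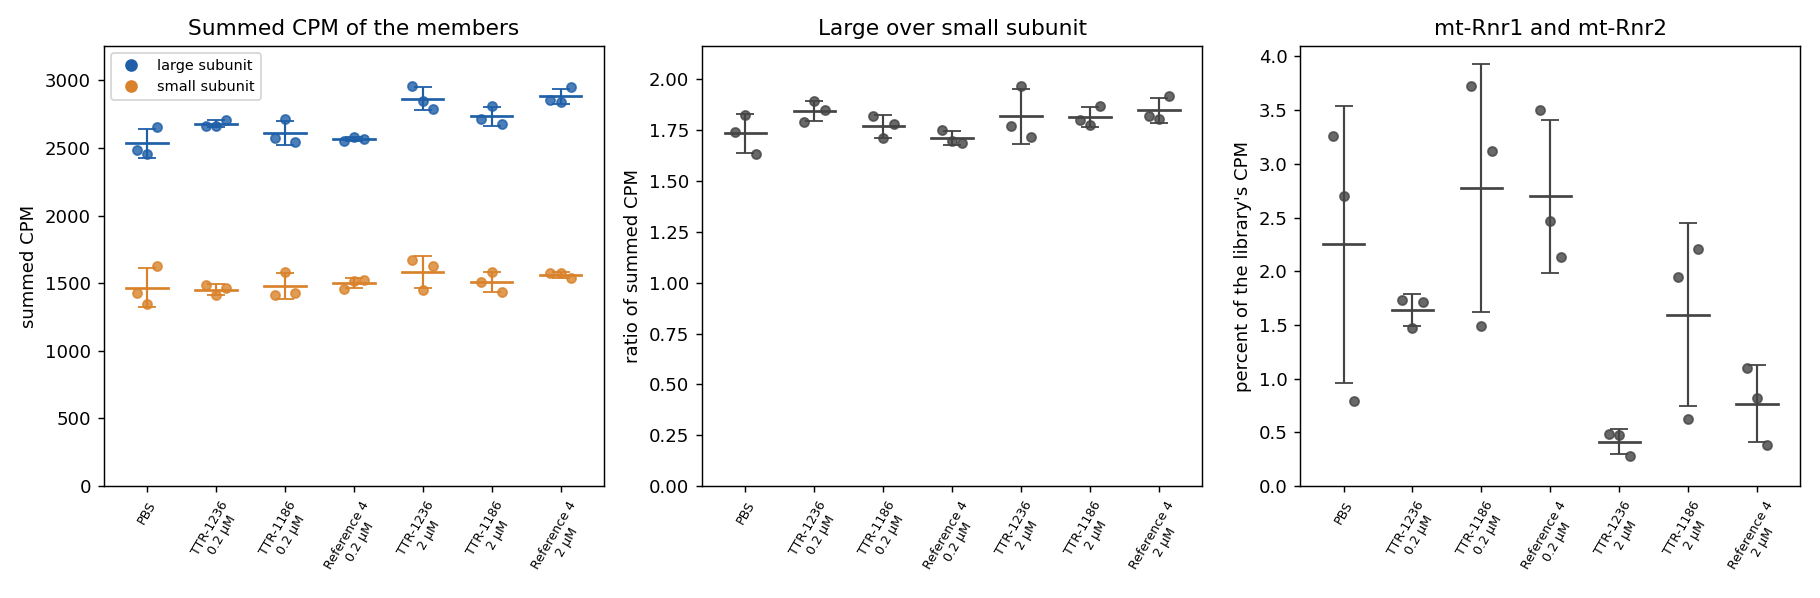
Summed CPM of large (blue) and small (orange) subunit members, the ratio of the 2 sums, and the share of mt-Rnr1 plus mt-Rnr2 in percent of CPM, by group. Points are libraries in replicate order, long bars are group means and error bars are SD (n = 3). Large subunit sums at 2 µM lie above those of PBS, the ratio stays between 1.63 and 1.97, and the ribosomal RNA share is lowest with TTR-1236 at 2 µM.

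Differences between groups were then tested gene by gene with limma on log2(CPM + 1), with 1 fit for all 9657 genes in the 21 libraries. The words rose and fell are kept for genes with a Benjamini-Hochberg adjusted p under 0.05. Log2 fold changes are on this scale, which understates the change of low genes, and are given ± their standard error.

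Against PBS, 1 member rose and none fell. With TTR-1236 at 2 µM Mrpl54 rose and no other member did, a share of 1.33% of members against 6.33% of all genes called in either direction and 1.44% called as risen. With limma no member was called with TTR-1236 at 0.2 µM (0.0207% of all genes called), TTR-1186 at 0.2 µM (0.0311%), Reference 4 at 0.2 µM (0.166%), TTR-1186 at 2 µM (0.0518%), Reference 4 at 2 µM (2.25%) or in the mean of the 6 treated groups (0.0725%). At an unadjusted p under 0.05 in limma these comparisons held 4, 6, 6, 5, 14 and 9 of the 75 members in the same order. Over all 9657 genes the counts were 665, 928, 1426, 890, 1954 and 1289, a higher share in each with both directions pooled. The directions differed. Upward the counts were 3, 3, 3, 4, 13 and 9 members against 355, 314, 434, 336, 749 and 537 genes. Downward they were 1, 3, 3, 1, 1 and 0 members against 310, 614, 992, 554, 1205 and 752 genes. edgeR called 0 members in each of the 6 and DESeq2 called 2, Mrpl43 and Mrpl54, with Reference 4 at 2 µM and 0 in the others. With TTR-1236 at 2 µM edgeR called 3 members (Mrpl36, Mrpl54 and Mrps6, all higher) and DESeq2 5, the same 3 with Mrpl43 higher and Mrpl1 lower. In limma the share of members called was at or below that of all genes in each comparison with PBS. The shares of all genes called by edgeR and DESeq2 are not given here.

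Mrpl54 (ENSMUSG00000034932, chr10:81264713-81266934 in mm10, minus strand) encodes a large subunit protein. Its level was 59.97, 63.6 and 73.3 CPM in PBS, 82.1, 87.2 and 90.99 CPM with TTR-1236 at 0.2 µM and 95.8, 106 and 117 CPM with TTR-1236 at 2 µM. All 3 libraries of TTR-1236 at 2 µM lie above all PBS libraries. The means at 2 µM and in PBS were 106 ± 10.5 and 65.6 ± 6.900 CPM (SD, n = 3), and the log2 fold change was 0.68 ± 0.19 (adjusted p = 0.0321, limma). The call was lost without PBS replicate 1, PBS replicate 2, or replicate 2 or 3 of TTR-1236 at 2 µM, with adjusted p of up to 0.148, and in the fit of only the compared libraries. Without PBS replicate 3, the PBS library that stood apart, 8 members were called with TTR-1236 at 2 µM and 5 with Reference 4 at 2 µM, Mrpl54 among them in both. The share of all genes called in this fit is not given here. Without all 3 libraries that stood apart 11 members were called with TTR-1236 at 2 µM, 7 higher and 4 lower (21.6% of all genes were called), and 9 with Reference 4 at 2 µM, 8 higher and 1 lower (18.5% of all genes). Mrpl54 was again among both, and Mrpl1 was the member lower in both. With Reference 4 at 2 µM Mrpl54 was at 128, 79.02 and 113 CPM, also without overlap with PBS, at a log2 fold change of 0.67 ± 0.19 (adjusted p = 0.0556, limma). Its 3 libraries of TTR-1186 at 2 µM held 76.9, 69.2 and 80.8 CPM, which overlaps PBS. At 0.2 µM all its libraries of TTR-1236 and of TTR-1186 lay above all PBS libraries, so for TTR-1186 only the lower dose was separate from PBS.

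In the comparisons with PBS where no member passed the threshold, the 2 members with the smallest p in each are given by value. With TTR-1236 at 0.2 µM they were Mrps6 at 39.01 ± 5.53 CPM against 26.2 ± 3.597 in PBS (SD, n = 3; adjusted p = 0.669, limma) and Mrps11 at 20.2 ± 1.84 against 12.5 ± 7.105 CPM (adjusted p = 0.712). Both are counterparts of bacterial small subunit proteins. With TTR-1186 at 0.2 µM they were Mrps21 at 58.9 ± 3.18 against 99.9 ± 19.9 CPM (adjusted p = 0.297, limma) and Mrps24 at 117 ± 14.6 against 79.1 ± 20.7 CPM (adjusted p = 0.333). With Reference 4 at 0.2 µM they were Mrpl18 at 30.6 ± 3.57 against 45.2 ± 7.11 CPM (adjusted p = 0.173, limma) and Mrpl53 at 18.3 ± 5.06 against 30.8 ± 2.83 CPM (adjusted p = 0.195). In these 3 groups Mrps11 is the only one of the 6 whose libraries overlap PBS. With TTR-1186 at 2 µM they were Mrpl22, a protein of the exit tunnel, at 29.2 ± 3.84 against 17.00 ± 0.934 CPM (adjusted p = 0.255, limma) and Mrpl57 at 82.7 ± 22.7 against 54.96 ± 3.17 CPM (adjusted p = 0.362). With Reference 4 at 2 µM the other one beside Mrpl54 was Mrpl43 at 67.8 ± 3.49 against 44.9 ± 13.1 CPM (adjusted p = 0.106, limma). None of Mrpl22, Mrpl57 and Mrpl43 overlaps PBS in these groups. In the mean of the 6 treated groups they were Mrpl54 (adjusted p = 0.221, limma) and Mrps6 (adjusted p = 0.265), at 89.1 and 37.1 CPM.

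The members leaned upward at 2 µM, by small amounts. Of the 75 log2 fold changes against PBS, 58 were positive with TTR-1236 at 2 µM (77.3%, against 44.5% of all genes), with a median of 0.17 against -0.07 over all genes. With Reference 4 at 2 µM 58 were positive (77.3% against 47.3%), with a median of 0.14 against -0.03. With TTR-1186 at 2 µM 46 were positive (61.3% against 48.5%), with a median of 0.11 against -0.01. At 0.2 µM the counts were 47 for TTR-1236 (62.7% against 49.3%), 36 for TTR-1186 (48.0% against 44.7%) and 38 for Reference 4 (50.7% against 44.6%). These comparisons share the 3 PBS libraries. Without the 3 libraries that stood apart the counts at 2 µM were 54 for TTR-1236, 47 for TTR-1186 and 55 for Reference 4, and at 0.2 µM 48, 38 and 38. The shares of all genes that were positive in this fit are not given here, so these counts alone show no lean of the members. The lean at 2 µM was not particular to the members. Of the 89 cytosolic ribosomal protein genes 75, 80 and 74 were positive with TTR-1236, TTR-1186 and Reference 4 at 2 µM in all libraries. Their medians were 0.18, 0.14 and 0.15, and at 0.2 µM 56, 31 and 42 were positive.

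Counts of members whose 3 treated libraries all lay above, or all below, the 3 PBS libraries went the same way at 2 µM. With Reference 4 at 2 µM 16 members lay above PBS (21.3%, against 8.91% of all genes) and 1, Mrps18c, below (1.33% against 10.8%). With TTR-1236 at 2 µM 11 lay above (14.7% against 7.08%) and 1, Mrps5, below (1.33% against 11.9%). With TTR-1186 at 2 µM 8 lay above (10.7% against 5.77%) and 2, Mrpl4 and Mrpl47, below (2.67% against 5.85%). At 0.2 µM, 10 members lay above with TTR-1236 (13.3% against 6.38%) and 1 below (1.33% against 5.41%). With TTR-1186 at 0.2 µM 4 lay above (5.33% against 3.92%) and 6 below (8.0% against 9.6%). With Reference 4 at 0.2 µM 4 lay above (5.33% against 4.2%) and 6 below (8.0% against 10.5%), and all 10 of these are large subunit genes. Without the 3 libraries that stood apart more members and more genes lay outside the range of the 2 PBS libraries left. At 2 µM 23 members lay above and 6 below with TTR-1236 (30.7% against 14.1% of all genes, and 8.0% against 27.4%). With TTR-1186 26 lay above and 8 below (34.7% against 18.3%, and 10.7% against 25.4%), and with Reference 4 24 and 6 (32.0% against 16.8%, and 8.0% against 28.1%). Mrpl15, the counterpart of bacterial L15, lay above PBS in 5 of the 6 groups, where PBS was at 35.5, 61.9 and 62.3 CPM and Reference 4 at 2 µM at 66.00, 72.5 and 82.2 CPM. Mrpl35, the least variable member, lay above PBS in all 3 groups at 2 µM, with 102, 100.1 and 109 CPM in PBS and 123, 122 and 114 CPM with Reference 4 at 2 µM.

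**Figure D3:**
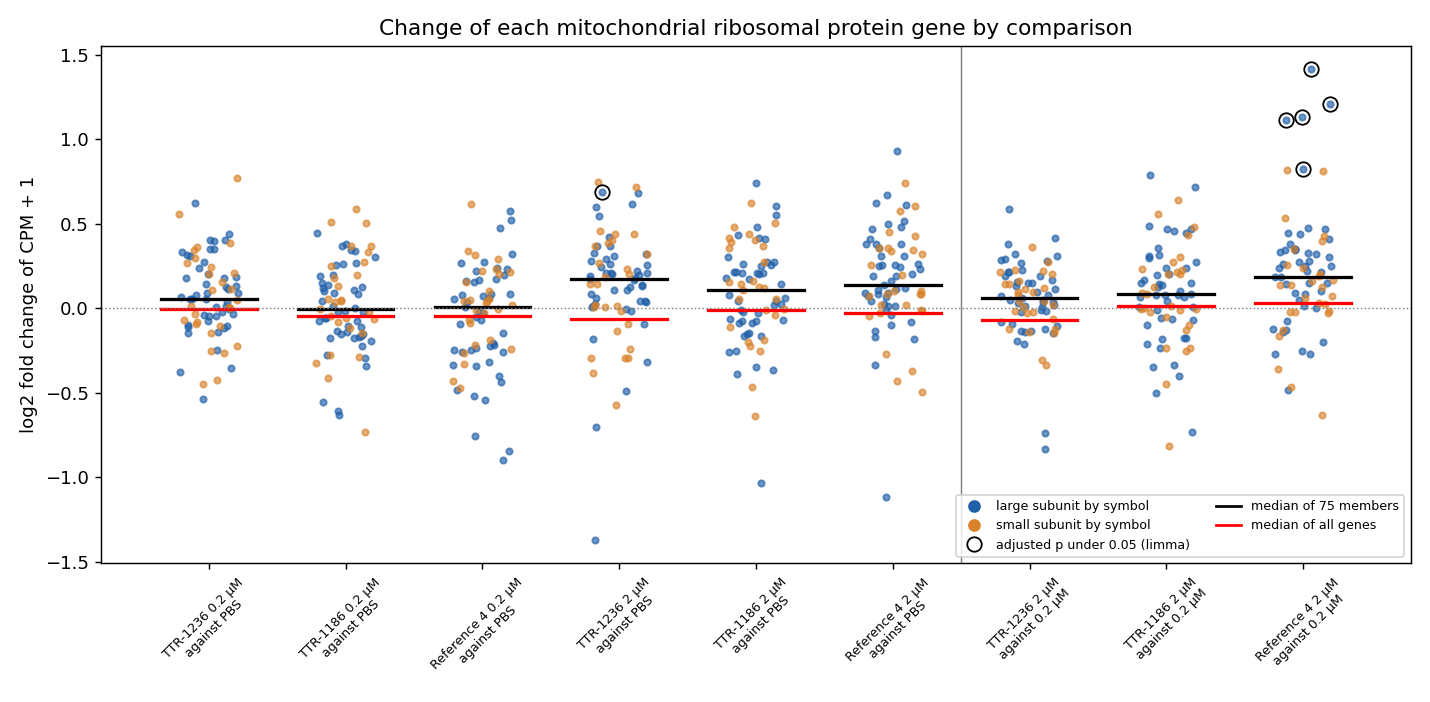
Log2 fold change of CPM + 1 of each of the 75 members in the 6 comparisons with PBS and the 3 comparisons of 2 µM with 0.2 µM, large subunit in blue and small subunit in orange. Black bars are the members' medians, red bars the medians of all 9657 genes, and rings mark adjusted p under 0.05 in limma. The members' median is above that of all genes in all 9 comparisons, and 6 rings are drawn, 5 of them for Reference 4 at 2 µM against 0.2 µM.

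Between the doses, Reference 4 differed most. At 2 µM against 0.2 µM 5 members rose and none fell, and all 5 were large subunit genes: Mrpl3, Mrpl33, Mrpl39, Mrpl44 and Mrpl53. This is 6.67% of members, against 12.8% of all genes called in either direction and 6.78% called as risen. The shares risen are near each other, so the count does not set the members apart from other genes. No member was called between the doses of TTR-1236 (0.135% of all genes called) or of TTR-1186 (0% of all genes) in limma. At an unadjusted p under 0.05 limma gave 2 of 75 members against 1112 of 9657 genes for TTR-1236. By direction these were 2 members higher and 0 lower, against 231 genes higher and 881 lower. For TTR-1186 it gave 11 of 75 members against 1415 of 9657 genes, with 8 members higher and 3 lower against 878 and 537 genes. edgeR called 0 in both, and DESeq2 called 1, Mrpl47, for TTR-1236 and 0 for TTR-1186.

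Mrpl3 (ENSMUSG00000032563, chr9:105053239-105079888, plus strand), the counterpart of bacterial L3, was at 8.405, 11.2 and 9.71 CPM with Reference 4 at 0.2 µM and at 21.01, 19.3 and 27.9 CPM at 2 µM. The PBS libraries, at 13.8, 15.1 and 14.3 CPM, lie between the 2 doses without touching either. Its log2 fold change between the doses was 1.13 ± 0.26 (adjusted p = 0.00760, limma). The same gene was at 18.7 ± 2.72 and 17.4 ± 1.36 CPM (SD, n = 3) at the low and high dose of TTR-1236.

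Mrpl33 (ENSMUSG00000106918, chr5:31596935-31664384, plus strand), the counterpart of bacterial L33, was at 62.2, 64.2 and 65.6 CPM with Reference 4 at 0.2 µM and at 99.2, 111 and 134 CPM at 2 µM. Here too the PBS libraries, at 89.4, 86.3 and 69.9 CPM, lie between the doses with no overlap. The log2 fold change was 0.82 ± 0.20 (adjusted p = 0.0113, limma). With TTR-1186 it was at 91.2, 58.5 and 89.9 CPM at 0.2 µM and 92.3, 143 and 96.6 CPM at 2 µM, and all 3 libraries at 2 µM lie above those at 0.2 µM.

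Mrpl39 (ENSMUSG00000022889, chr16:84717576-84735742, minus strand) encodes a protein related to threonyl-tRNA synthetase and had the largest fold change of the 5. It was at 5.297, 6.35 and 3.103 CPM at 0.2 µM and 9.79, 15.9 and 18.7 CPM at 2 µM of Reference 4, a log2 fold change of 1.41 ± 0.36 (adjusted p = 0.0149, limma). The doses do not overlap, while PBS, at 5.03, 10.05 and 6.796 CPM, overlaps both. It is one of the 3 members with a mean under 10 CPM, and its lowest library held 46 reads.

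Mrpl44 (ENSMUSG00000026248, chr1:79776018-79781445, plus strand) was at 5.72, 12.2 and 5.598 CPM at 0.2 µM and 16.9, 17.8 and 20.3 CPM at 2 µM of Reference 4, a log2 fold change of 1.21 ± 0.32 (adjusted p = 0.0187, limma). All PBS libraries, at 12.3, 17.6 and 14.4 CPM, lie above the libraries at 0.2 µM, and 1 of them lies within the range at 2 µM. Mrpl53 (ENSMUSG00000030037, chr6:83109040-83109939, plus strand), whose reads are those of Gm42688 as well, was at 23.7, 13.6 and 17.5 CPM and 28.1, 43.9 and 50.3 CPM at the same doses. Its log2 fold change was 1.11 ± 0.27 (adjusted p = 0.0107, limma), and PBS, at 27.9, 31.2 and 33.5 CPM, lies above all libraries at 0.2 µM.

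All 5 genes were below PBS in mean at 0.2 µM of Reference 4 and above it at 2 µM, and none of these 10 differences from PBS passed the threshold. Without replicate 3 of Reference 4 at 2 µM none of the 75 members was called between its doses, and adjusted p of the 5 genes reached 0.0678 to 0.0981 in their least favourable fit. Without PBS replicate 3, which enters only through the shared spread, 8 members were called, and without all 3 libraries that stood apart 9, these 5 among them. The shares of all genes called in these fits are not given here, so these counts do not set the members apart from other genes. The mitochondrial ribosomal RNAs took 3.498, 2.46 and 2.13 percent of CPM in the 3 libraries of Reference 4 at 0.2 µM and 1.098, 0.819 and 0.383 percent at 2 µM. With mitochondrially encoded genes left out of the totals, 5 members were called, and they were the same 5.

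**Figure D4:**
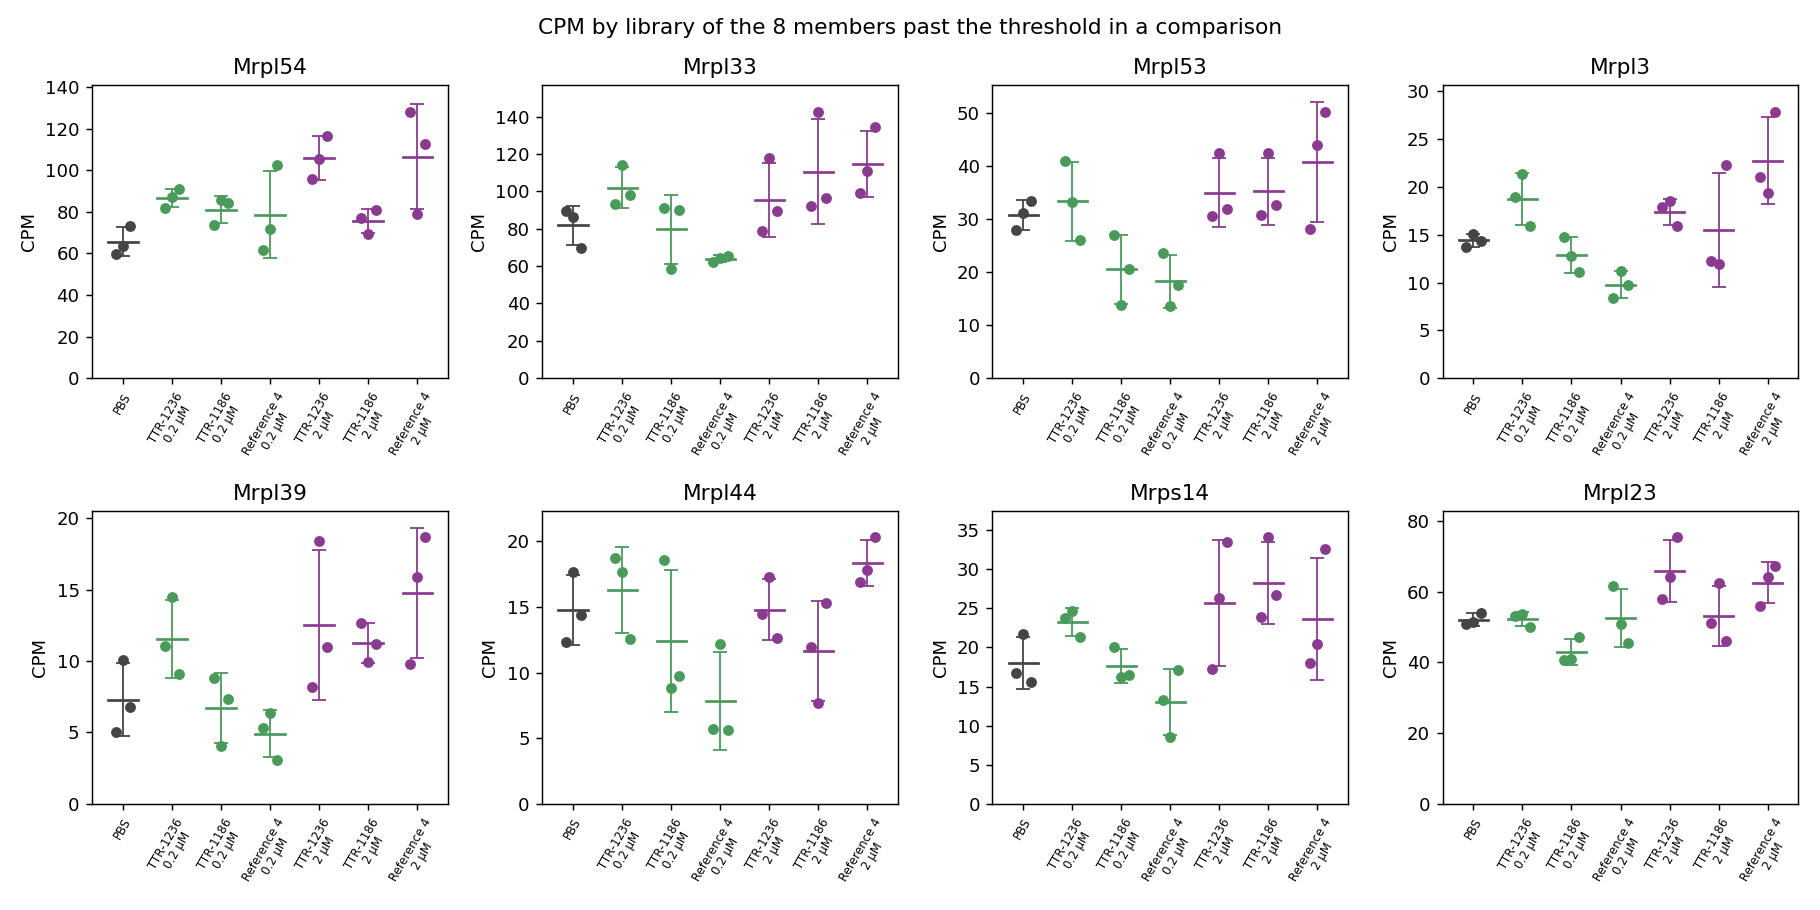
CPM by library of the 8 members past the threshold in at least 1 comparison, in PBS (grey), at 0.2 µM (green) and at 2 µM (purple). Points are libraries in replicate order, long bars are means and error bars are SD (n = 3). Mrpl54 lies above all PBS libraries with TTR-1236 at both doses, with Reference 4 at 2 µM and with TTR-1186 at 0.2 µM. Mrpl33, Mrpl53, Mrpl3, Mrpl39 and Mrpl44 have their lowest group mean with Reference 4 at 0.2 µM, where Mrpl3 lies at 8.40 to 11.2 CPM.

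Averaged over the 3 agents, 5 members rose from 0.2 to 2 µM and none fell (6.67%, against 18.9% of all genes called in either direction and 8.8% called as risen). They were Mrpl53 (log2 fold change 0.66 ± 0.15, adjusted p = 0.00564, limma), Mrpl39 (0.73 ± 0.21, 0.0174), Mrpl33 (0.39 ± 0.12, 0.0205), Mrps14 (0.52 ± 0.16, 0.0271) and Mrpl23 (0.29 ± 0.10, 0.0409). Mrpl53, Mrpl39 and Mrpl33 were also called for Reference 4 alone, and the 2 comparisons share its 6 libraries. Without replicate 3 of Reference 4 at 2 µM only Mrpl39 and Mrpl53 were called. Without TTR-1186 2 µM replicate 2 the members called were Mrpl3, Mrpl39 and Mrpl53, so Mrpl33, Mrps14 and Mrpl23 lost their calls, and the same 3 were called without all 3 libraries that stood apart. The count was also 3 without TTR-1236 0.2 µM replicate 3 or replicate 2 or 3 of TTR-1236 at 2 µM, and 8 without TTR-1186 2 µM replicate 1. The shares of all genes called in these fits are not given here.

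Mrps14 (ENSMUSG00000058267, chr1:160195215-160202170, plus strand), the counterpart of S14 in the head of the small subunit, was the only small subunit gene called by limma in any of the 17 comparisons with all libraries. It was at 23.7, 24.7 and 21.3 CPM with TTR-1236, 20.1, 16.2 and 16.5 CPM with TTR-1186 and 13.3, 8.62 and 17.1 CPM with Reference 4 at 0.2 µM. At 2 µM it was at 17.3, 26.4 and 33.4, 23.9, 34.1 and 26.7 and 17.98, 20.5 and 32.6 CPM in the same order of agents. The doses of TTR-1186 and of Reference 4 do not overlap, and those of TTR-1236 do. Replicate 2 of TTR-1186 at 2 µM holds the highest value. Without it the adjusted p was 0.0586 (limma), and the call was kept in 15 of the 21 fits that leave out 1 library.

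Mrpl23 (ENSMUSG00000037772, chr7:142532686-142540747, plus strand) is the large subunit protein at the mouth of the exit tunnel, and its reads go with those of Mrpl23-ps1. Its means at 0.2 µM were 52.3 ± 2.04 CPM (SD, n = 3) with TTR-1236, 42.9 ± 3.79 CPM with TTR-1186 and 52.7 ± 8.197 CPM with Reference 4. At 2 µM they were 65.8 ± 8.79, 53.2 ± 8.42 and 62.5 ± 5.79 CPM in the same order. The change is small in each agent, and only the doses of TTR-1236 do not overlap. Its call was kept in 9 of the 21 fits that leave out 1 library.

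Of the 75 log2 fold changes between the doses 57 were positive for Reference 4 (76.0%, against 52.2% of all genes), with a median of 0.25 in the large subunit and 0.13 in the small. For TTR-1236 50 were positive (66.7% against 42.1%) and for TTR-1186 47 (62.7% against 51.1%), or 53 without the libraries that stood apart. The share of all genes beside that last count is not given here. Of the 89 cytosolic ribosomal protein genes 69, 70 and 71 were positive for Reference 4, TTR-1236 and TTR-1186. For Reference 4 the 38 members at or under the median level had a median log2 fold change of 0.26 and the 37 above it one of 0.15.

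The 3 agents were compared with each other at matched doses, which gave 6 pairs, adjusted over all genes of each pair. No member was called in any of them with limma, edgeR or DESeq2. Of all genes limma called 0% in each pair at 0.2 µM, 0% for TTR-1236 against Reference 4 at 2 µM, 0.373% for TTR-1186 against Reference 4 at 2 µM and 0.342% between TTR-1236 and TTR-1186 at 2 µM. At an unadjusted p under 0.05 the most members, 12 of 75, were found for TTR-1236 against Reference 4 at 0.2 µM, beside 1351 of 9657 genes. The smallest p there was that of Mrpl3, at 18.7 ± 2.72 against 9.78 ± 1.41 CPM (SD, n = 3), a log2 difference of 0.87 with a 95% interval of 0.34 to 1.40 (adjusted p = 0.113, limma). Between TTR-1236 and TTR-1186 at 2 µM it was that of Mrps5, with a log2 difference of -0.73 and an interval of -1.22 to -0.24 (adjusted p = 0.136, limma). For TTR-1186 against Reference 4 at 2 µM it was that of Mrpl54, with a difference of -0.46 and an interval of -0.85 to -0.08 (adjusted p = 0.301, limma). The 95% interval of a member's difference between agents, which is not adjusted, reached 0.45 to either side at the median. Smaller differences between agents were mostly not detectable. The adjusted threshold asks for larger ones, as Mrpl3 at 0.87 was not called.

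Whether the dose mattered more for one agent than for another was tested by the interaction of dose and agent. No member, and no other gene, was called in any of the 3 interactions in limma. An unadjusted p under 0.05 was found for 6, 5 and 2 members for TTR-1236 against Reference 4, TTR-1186 against Reference 4 and TTR-1236 against TTR-1186. The same counts over all genes are not given here. The smallest p was that of Mrpl3, whose change with dose was lower by 1.22 (log2) for TTR-1236 than for Reference 4 (adjusted p = 0.215, limma). The rises found for Reference 4 are not shown to differ from the changes of the other agents.

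Other genes of mitochondrial translation showed few calls. Of the 5 ribosomal proteins whose symbols fall outside the rule, all measured, Chchd1 rose between the doses of Reference 4, from 30.9 ± 6.002 to 54.8 ± 9.92 CPM (SD, n = 3; log2 fold change 0.81 ± 0.21, adjusted p = 0.0174, limma), and in the mean of the 3 agents. Against PBS none of the 5 was called, and the smallest p with TTR-1236 at 2 µM was that of Gadd45gip1, at 89.1 ± 7.96 against 62.98 ± 11.4 CPM (adjusted p = 0.0690, limma). Of 24 symbols listed for ribosome assembly and ribosomal RNA maturation 17 were measured. C1qbp, a matrix protein, rose between the doses of Reference 4, from 63.2 ± 14.8 to 117 ± 20.1 CPM (adjusted p = 0.0132, limma), and in the mean of the agents C1qbp and the helicase gene Ddx28 rose (adjusted p = 0.00951 and 0.00661). None of the 17 fell in these comparisons. The calls of Chchd1 and C1qbp for Reference 4 were lost without its replicate 3 at 2 µM, and also without replicate 3 and replicate 2 at 0.2 µM respectively.

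Of 18 genes listed as translation factors or related proteins 14 were measured. The initiation factor gene Mtif2 was the only 1 called against PBS. It fell with TTR-1236 at 2 µM, to 1.43 ± 1.08 CPM from 8.14 ± 5.78 CPM in PBS (SD, n = 3, adjusted p = 0.0390, limma). Of 17 mitochondrial aminoacyl-tRNA synthetases, the enzymes that charge transfer RNAs, 13 were measured, and 1, Tars2, rose with TTR-1236 at 2 µM, to 28.9 ± 1.600 CPM from 16.8 ± 2.85 CPM in PBS (adjusted p = 0.0305, limma). Tars2 also rose between the doses of Reference 4 (adjusted p = 0.0324, limma), a call lost in the fit of only the compared libraries and without replicate 1 or 2 at 0.2 µM or replicate 2 or 3 at 2 µM (adjusted p up to 0.117), and in the mean of the agents (0.0102). Of 6 genes of mitochondrial transcription 3 were measured, and 1, Tfb2m, a transcription initiation factor, fell with TTR-1236 at 2 µM, from 20.6 ± 4.01 to 5.95 ± 3.51 CPM (adjusted p = 0.0287, limma). The calls of Mtif2, Tars2 and Tfb2m against PBS were lost in the fit of only the compared libraries. They were also lost without PBS replicate 1 or 2 or replicate 1 or 3 of TTR-1236 at 2 µM (Tars2 also without replicate 2). Mtif2 was not called with a pseudocount of 5, nor was Tfb2m with edgeR. Over all alternatives the adjusted p of Mtif2, Tars2 and Tfb2m reached up to 0.212, 0.207 and 0.137.

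The 15 mitochondrially encoded RNAs did not move as one. With TTR-1236 at 2 µM mt-Rnr2 fell, at 3213 ± 957 CPM against 18193 ± 10084 CPM in PBS (SD, n = 3; log2 fold change -2.33 ± 0.57, adjusted p = 0.0297, limma), and none of the 15 rose. Its call was lost in the fit of only the compared libraries, and without PBS replicate 1 or 2, or replicate 2 or 3 of TTR-1236 at 2 µM. Between the doses of Reference 4 3 rose, mt-Atp6, mt-Nd3 and mt-Cytb (log2 fold changes 0.78, 0.73 and 0.76), and 3 fell. In the mean of the 3 agents 4 fell, among them mt-Rnr2 by 1.62 and mt-Rnr1 by 1.55 on the log2 scale (adjusted p = 0.00474 and 0.00911, limma). The cytosolic ribosomal protein genes held 40 of 89 risen and none fallen in that comparison, with a median log2 fold change of 0.20, against 5 of 75 and 0.12 for the mitochondrial ones. The 2 sets differ in level, with summed PBS means of 87477 and 4000.3 CPM, and the counts were not matched for it.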

How the data were processed

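Each of the 21 files gives CPM as deposited by the authors, with every library summing to 1000000 over the same 9657 genes. The submitters' processing notes name cutadapt 1.15, HISAT2 2.1.0, featureCounts and build mm10. Settings, strandedness, annotation and gene filter were not given in the sources used here. In every library 100% of values were whole reads within 0.001 reads, so read totals were recovered. They cover the listed genes only, and depth sets the counting error of low genes. Symbols were matched by Ensembl identifier to GENCODE on GRCm38. Groups follow agent and dose in the labels. The members and gene lists were chosen with earlier results of these data known.

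limma 3.58.1 in R 4.3.3 was fitted to log2(CPM + 1) with 7 group means, all 21 libraries and a trended, robust variance prior, for 17 comparisons and 3 interactions, with Benjamini-Hochberg adjustment over all genes. Named are all members past the threshold, the 2 with the smallest p in comparisons with PBS that had none, the 5 highest, 3 lowest, 2 most and 2 least variable of each subunit, 3 members placed elsewhere by structure, and at most 4 genes a list. Others are named after their values were seen where a count or library singles them out. Alternatives were edgeR 4.0.16 and DESeq2 1.42.0 on the recovered reads, rescaled CPM, pseudocounts 0.5 and 5, genes of at least 10 CPM, the compared libraries alone, a replicate block, and libraries left out. In a simulation of the comparison of PBS with TTR-1236 at 2 µM over 9657 genes, limma recovered 1.49% of genes changed 1.5-fold, 29.9% at 2-fold and 86.4% at 4-fold, and called 3 unchanged genes. Replicates of every group differed beyond sampling noise. Promoter windows came from RefSeq and were searched for exact letters on both strands.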

Additional observations from a re-analysis of the deposited data

Results flagged for a closer look

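Mrpl14, a large subunit gene with a bacterial counterpart, differed between the doses in opposite directions for 2 agents, in every library of both. With Reference 4 it was at 65.97, 52.2 and 59.1 CPM at 0.2 µM and 75.3, 83.5 and 82.1 CPM at 2 µM. With TTR-1186 it was at 68.1, 77.99 and 62.4 CPM and 61.4, 55.03 and 59.6 CPM. The change with dose of TTR-1186 less that of Reference 4 was -0.68 on the log2 scale, with an unadjusted p of 0.0158 and an adjusted p of 0.474 in limma, so the test of the difference did not pass the threshold.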

How the results depend on the processing

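Counts of members called kept within 1.5 times the reported count in most alternatives, and no direction reversed. In most of the 17 comparisons the reported count was 0, and a repeated 0 counts as kept. The counts that were not 0 were less stable. With TTR-1236 at 2 µM against PBS, where 1 was reported, the count was 3 with edgeR, 5 with DESeq2, 2 on CPM rescaled with TMM factors, 3 with DESeq2 size factors and 0 with only the compared libraries. Leaving out 1 library gave 0 to 8 there, with 0 without PBS replicate 1 or 2 or replicate 2 or 3 of TTR-1236 at 2 µM, and 8 without PBS replicate 3. For Reference 4 at 2 µM against PBS, where 0 were reported, it was 2 with DESeq2, and 1, Mrpl54, with DESeq2 size factors, with genes of at least 10 CPM and with the replicate block. Leaving out 1 library gave 0 to 5 there, 5 without PBS replicate 3. DESeq2 called 1 member, Mrpl47, between the doses of TTR-1236, and the fit of only the compared libraries called 1, Mrpl33, for TTR-1236 against Reference 4 at 0.2 µM. Between the doses of Reference 4 leaving out 1 library gave 0 (without its 2 µM replicate 3) to 8, in the mean of the agents 2 to 8, and for PBS against the mean of all 6 treatments 0 to 3. Without PBS replicate 3 and TTR-1186 2 µM replicate 2 together, counts were 1 for TTR-1186 and 2 for Reference 4 at 0.2 µM against PBS, 10 for TTR-1236 and 6 for Reference 4 at 2 µM against PBS, 9 between the doses of Reference 4 and 5 in the mean of the 6 treated groups. Without TTR-1186 0.2 µM replicate 2 as well, chosen after seeing the data, they were 1 for TTR-1236 and 3 for Reference 4 at 0.2 µM against PBS, 11 and 9 for these agents at 2 µM against PBS, 1 (Mrpl33) for TTR-1236 against Reference 4 at 0.2 µM, 9 between the doses of Reference 4, 3 in the mean of the agents and 5 in the mean of all 6 treatments. The cause of these shifts was not tested, and the shares of all genes called in these fits are not given in this section. Leaving mitochondrially encoded genes out of the totals, also chosen after seeing the data, gave 1 for TTR-1236 at 2 µM against PBS, 5 between the doses of Reference 4 and 4 in the mean of the agents. With subunits by structure the ratio of large to small was 2.15 in PBS, 2.21, 2.09 and 2.12 with TTR-1236, TTR-1186 and Reference 4 at 0.2 µM, and 2.17, 2.18 and 2.20 at 2 µM. As a ratio of medians of CPM + 1 it was 1.25, 1.17, 1.17, 1.12, 1.19, 1.06 and 1.21 in the same order.

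Same-numbered libraries had correlations of their deviations of -0.39 to 0.29 (median 0.02, 18 of 63 over 0.1). Differently numbered ones had -0.37 to 0.51 (median -0.02, 35 of 126 over 0.1). Of the 21 libraries 7 correlated best with their own number. No pairing by number was seen, although a pairing hidden by other spread would not show in this way. The fit with the replicate block called 1 member for TTR-1236 at 2 µM and 1 for Reference 4 at 2 µM against PBS, 5 between the doses of Reference 4 and 4 in the mean of the agents. In the simulation of TTR-1236 at 2 µM against PBS 29.9% of 2-fold changes were recovered, and the reach in other comparisons was not simulated.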
